A study of Mus musculus with 6 samples.

Results

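Microglia, blood vessel cells and connective tissue cells are the non-neural cells that a cortical dissection can carry into a neuron culture, and 43 genes that mark them were followed here. The set held 16 markers of microglia, 8 of endothelial cells, 4 of mural cells (pericytes and smooth muscle of the vessel wall) and 15 of fibroblasts and meninges. Its members were a fixed list of gene symbols, and each was read from the array's probe sets whose annotation names that gene alone. All 43 genes were on the array, among 22072 genes named there, with 1076 probe sets between them.

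The values come from 6 exon microarrays, 3 per group, hybridised with RNA of mouse cortical neurons in primary culture. The question posed by the series title is how expression in these neurons changes when Cugbp1 is knocked down. Cugbp1 is the older name of Celf1, whose protein binds RNA and takes part in splicing, mRNA decay and translation. The unit throughout is the log2 value deposited for each probe set, so a difference of 1 is a doubling.

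Both groups came from C57BL/6 embryos at embryonic day 15. The cortex was stripped of its meninges, dissociated and grown in medium with 1% fetal bovine serum, and AraC, a blocker of DNA synthesis that kills dividing cells, was added on day 2. On day 5 the control group received a lentivirus with a control shRNA (a short hairpin RNA) for 4 hours, and the Cugbp1 group a lentivirus with an shRNA against Cugbp1. Cells were harvested on day 11, 6 days after infection, and 100 ng of RNA went onto each array. No arm without virus and no arm restoring Celf1 was analysed here, so effects of the hairpin itself and of lower Celf1 cannot be told apart. The labels do not say whether replicates came from separate dissections, so p-values measure the spread between these arrays, which may be technical. In both groups the treatment text of replicates 2 and 3 gives Tdp-43 as the target of the shRNA, and the series' design text speaks of motor neurons, against cortical neurons in its title and sample labels.

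Celf1 was read as a check of the group titles. No value is given here for Tdp-43, the target named in the treatment text of replicates 2 and 3. Its gene value was 10.85, 10.79 and 10.75 in control replicates 1, 2 and 3 and 9.59, 9.40 and 9.33 in the Cugbp1 shRNA cultures. Celf1 fell by 1.36 (limma, SE 0.10, adjusted p = 0.0118) to 39.1% of the control level, and the groups did not overlap. Leaving out single arrays left its change at -1.43 to -1.32, and it stayed called only without control replicate 1 (adjusted p = 0.0312 there, and 0.0530 to 0.139 without any other array, limma), as fewer genes pass with 5 arrays.

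Microglia are the resident macrophages of the brain. They arise outside the neural lineage, depend on signalling through the receptor Csf1r, and supply most of the complement C1q made in brain. Endothelial cells line the vessels and form the barrier to blood, pericytes sit on them and are recruited by PDGF-B acting on Pdgfrb, and fibroblasts of the meninges and vessel wall lay down the fibrillar collagens. Several of these genes are not exclusive to their list: astrocytes secrete thrombospondin 1 (Thbs1), and Pdgfrb is also made by fibroblasts.

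In the control cultures the microglial and vascular markers sat low on the array, while those of fibroblasts and meninges were mixed. A gene was counted as measured where at least 50% of its probe sets reached the median of all probe sets, 5.74, in the mean of the 3 control arrays. By that rule 35 of the 43 markers were measured (81.4%), against 74.4% of all named genes, and at the upper quartile, 7.47, 10 were (23.3%), against 51.1%. The deposited table carries no detection p-value, so this is a position on the array and not a detection call.

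Of the 225 microglial probe sets, 120 reached the array median (53.3%) and 41 the upper quartile (18.2%). The endothelial list stood alike, with 136 of 250 probe sets at the median (54.4%) and 34 at the upper quartile (13.6%). Mural markers reached the median with 70 of 112 probe sets (62.5%) and the upper quartile with 28 (25.0%). Pdgfrb alone held 29 of those 70 and 21 of those 28. Of the other mural genes, Rgs5 reached the upper quartile with 2 of 9 probe sets, Abcc9 with 3 of 49 and Anpep with 2 of 25. Fibroblast and meninges markers reached the median with 402 of 489 (82.2%) and the upper quartile with 264 (54.0%), close to the 78.9% and 58.4% of all named genes. By gene this list was mixed, with 7 of 15 measured at the upper quartile. Fn1 held 55 of those 264 probe sets and Thbs1 26, while Tagln reached that level with 0 of 7 and Postn with 2 of 26. Neuron markers, read for comparison, reached the median with 97.9% of 283 probe sets and the upper quartile with 92.2%. Astrocyte markers did so with 91.3% and 77.4%, and oligodendrocyte lineage markers with 92.0% and 76.0%. All 15 neuron genes read were measured by the rule above, as were all 12 astrocyte genes, so the rule does not single out neurons. At the upper quartile all 15 neuron genes and 10 of the 12 astrocyte genes were measured, so markers of the labelled cell type stood high on the array. Rbfox3, also on the neuron list, had no probe sets and was not read.

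**Figure D1:**
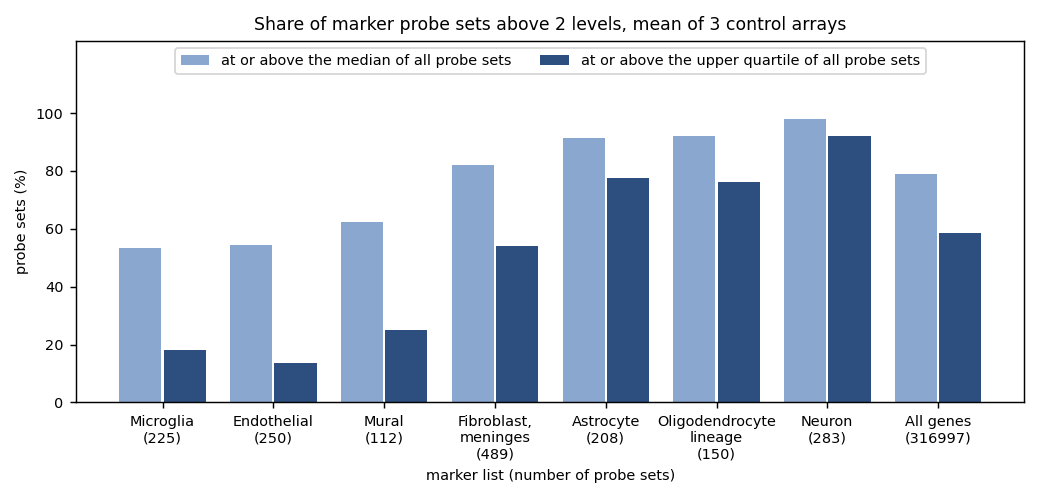
Share of probe sets (vertical axis, percent) at or above the median (light bars) and the upper quartile (dark bars) of all probe sets, in the mean of 3 control arrays, for each marker list, with its number of probe sets in brackets. The microglial and endothelial lists reach the upper quartile with 18.2% and 13.6% of their probe sets, and the neuron list with 92.2%.

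The members not measured were 3 microglial genes, 3 endothelial genes, the mural gene Abcc9 and the fibroblast gene Lum. Itgam, the alpha chain of complement receptor 3, reached the array median with 20 of 41 probe sets. Ptprc, the leukocyte phosphatase CD45, did so with 11 of 53, and Ctss, the lysosomal protease cathepsin S, with 4 of 10. Kdr, the main VEGF receptor, reached it with 9 of 35 and the angiopoietin receptor Tek with 8 of 31. Abcc9, a regulatory subunit of the potassium channel of pericytes, did so with 21 of 49.

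Cldn5 and Lum were the 2 markers with fewer than 3 probe sets above the filter, and they were not tested. Cldn5, the tight junction protein of the blood-brain barrier, had 1 of 3 probe sets at the array median. Over all its probe sets it read 4.45, 4.39 and 5.26 in controls and 4.66, 4.45 and 5.20 with the Cugbp1 shRNA, below the array median on every array. Lum, the collagen-binding proteoglycan lumican, read 4.15, 4.11 and 3.70 in controls and 4.10, 3.74 and 3.59 with the shRNA, also below the median on every array. Values of the tested markers come from kept probe sets alone and cannot be set beside these. Over all probe sets the median control level was 4.04 for Ptprc and 4.51 for Tek, against 4.70 for Cldn5.

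Across the remaining 41 markers, 2 fell in the Cugbp1 shRNA cultures and none rose: Pdgfrb, the PDGF receptor of mural cells, and Thbs1, the secreted matrix protein thrombospondin 1. These are the calls of limma's moderated test at a Benjamini-Hochberg adjusted p under 0.05, taken over 16524 genes. In the same test 2.87% of all genes were called lower and 1.11% higher, so the 2 of 41 stand near the background. At an unadjusted p under 0.05 the same 2 markers passed and no marker passed upward, where 3083 of all 16524 genes passed in either direction. Apart from Pdgfrb and Thbs1, each of the 39 other markers had overlapping groups, whereas 14.4% of all genes had every Cugbp1 shRNA array below every control array and 10.8% the reverse. With the replicate number as a block, 3 markers were called lower and none higher, against 13.9% of all genes lower and 9.35% higher.

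Most markers moved by less than the spread of their controls. The change was within 1 control SD for 34 of 41 (82.9%), against 56.9% of all genes, and under 0.2 in either direction for 36 (87.8%), against 68.6%. The median size of change was 0.066 for the markers and 0.126 for all genes, although the markers' median SE was larger, 0.152 against 0.121. Fewer of the markers than of all genes were measured at the upper quartile (23.3% against 51.1%). The part of low signal in their small changes was not tested. Most of the small differences nevertheless pointed down: means were lower in 32 markers (78.0%, against 53.5% of all genes) and higher in 9, with a median change of -0.053 beside -0.015 for all genes, and 31 of the 39 markers not called changed sign in at least 1 of 14 alternative analyses. For 26 of the 41 markers (63.4%, against 62.0% of all genes) the 95% interval of the change lay within 0.5 either side of 0. For 38 it lay within 1, against 16032 of all 16524 genes. In bulk RNA, fewer cells of a type and less RNA per cell cannot be told apart.

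**Figure D2:**
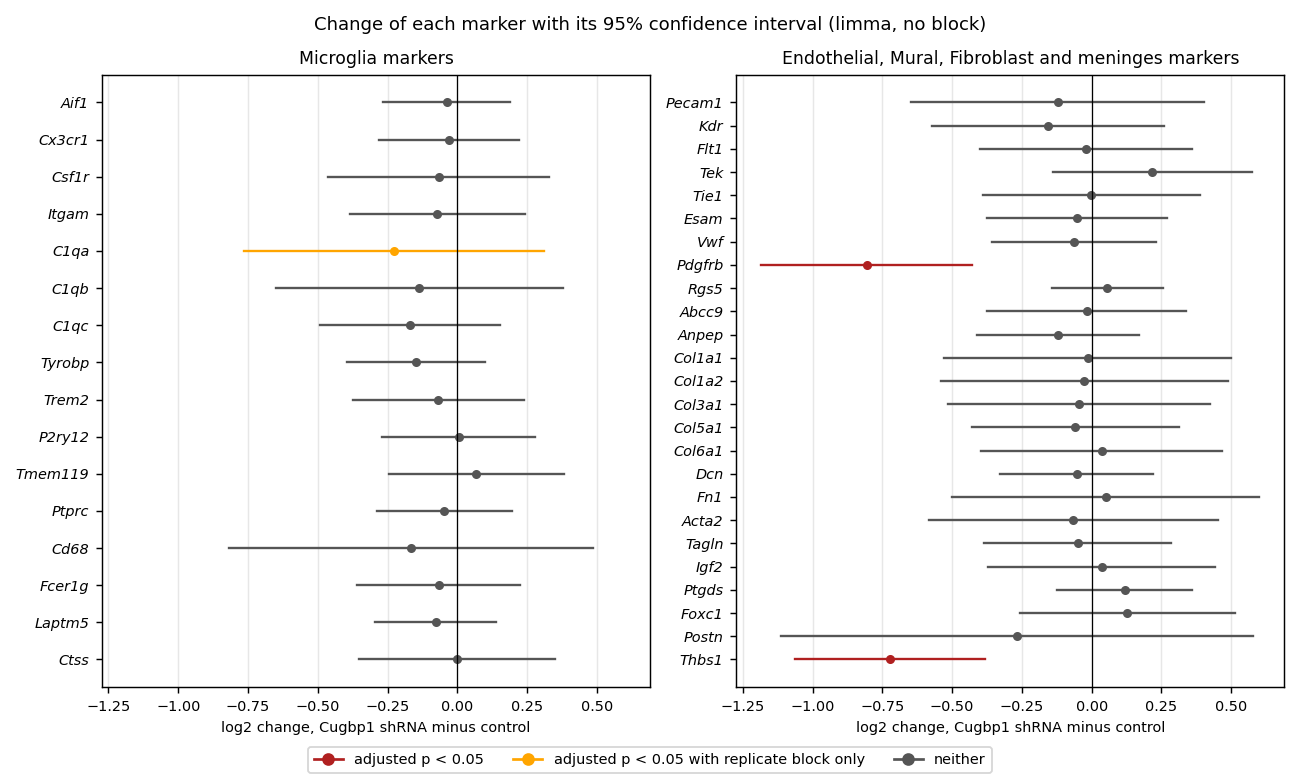
Log2 change of each tested marker, Cugbp1 shRNA minus control (horizontal axis), with its 95% confidence interval from limma without a block. Pdgfrb at -0.81 and Thbs1 at -0.72 (red) lie apart, C1qa (orange) passed only with the replicate block, and the intervals of all markers but Pdgfrb and Thbs1 include 0.

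Pdgfrb carries the signal of PDGF-B that keeps pericytes on vessels. Its gene value was 8.42, 8.67 and 8.18 in control replicates 1, 2 and 3 and 7.79, 7.70 and 7.36 with the Cugbp1 shRNA. Every knockdown array lay below every control array. From 8.42 ± 0.25 (SD, n = 3) to 7.62 ± 0.23 (SD, n = 3) the change was -0.81 (limma, SE 0.16, adjusted p = 0.0417), leaving 57.2% of control with a 95% interval of 44.0% to 74.3%. Within the 3 replicate numbers the change was -0.63, -0.97 and -0.82, and with the replicate block the adjusted p was 0.00281 (limma).

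All 29 Pdgfrb probe sets reached the array median in controls, 21 of them the upper quartile, and all 29 had a lower mean with the Cugbp1 shRNA. Of these, 23 had groups that did not overlap and 26 were lower within every replicate number, while among all probe sets of tested genes 10.1% and 25.7% did so. The call was made from these same probe sets on the same arrays, so their counts describe the fall and add no separate support. The probe set changes ran from -1.90 to -0.29 with a median of -0.84. The call rested on all 6 arrays: without any single array the change was -0.86 to -0.64 and its adjusted p 0.0798 to 0.216 (limma), and with replicates 2 and 3 alone it was -0.89 with an adjusted p of 0.0539.

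The other mural markers did not move with Pdgfrb beyond their spread. Rgs5, a regulator of G protein signalling typical of pericytes, read 7.16, 7.17 and 7.16 in controls and 7.16, 7.29 and 7.20 with the shRNA, a change of 0.06 (limma, SE 0.09, adjusted p = 0.835). Abcc9 read 6.32, 6.61 and 6.75 against 6.29, 6.67 and 6.67, a change of -0.02 (SE 0.15). Anpep, the membrane aminopeptidase CD13, read 6.52, 6.76 and 6.61 against 6.31, 6.53 and 6.69, a change of -0.12 (SE 0.12). The 95% intervals of these genes, -0.14 to 0.25, -0.38 to 0.34 and -0.41 to 0.17, all lie above the estimate for Pdgfrb. They read lower on the array, though. The upper quartile was reached by 2 of 9 probe sets of Rgs5, 3 of 49 of Abcc9 and 2 of 25 of Anpep, against 21 of 29 of Pdgfrb. Whether a fall in mural RNA could be read at that level was not tested.

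Around Pdgfrb, a further list of 18 mural genes had 17 tested, with none called in either direction (limma, no block). With the block 1 of the 17 was called higher, where 9.35% of all genes were. This was Pdgfa, a ligand of the sister receptor Pdgfra, at 0.20 (adjusted p = 0.0478 with the block and 0.421 without). Cspg4, the NG2 proteoglycan of pericytes and of oligodendrocyte precursors, read 9.07, 9.04 and 9.05 in controls and 9.10, 9.47 and 9.29 with the shRNA. Its higher mean, by 0.23 (SE 0.11), did not pass the test with the block (adjusted p = 0.105) or without (0.330). Named by family after their values had been seen, the ligands Pdgfb and Pdgfc changed by 0.10 and 0.17 and the receptor Pdgfra by 0.16, and none was called.

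Thbs1 encodes a large secreted glycoprotein that binds matrix, growth factors and the receptor Cd47. It read 8.89, 9.29 and 9.05 in control replicates 1, 2 and 3 and 8.16, 8.58 and 8.32 with the Cugbp1 shRNA. The groups did not overlap, and the change was nearly the same within each number, -0.73, -0.71 and -0.73. From 9.08 ± 0.20 (SD, n = 3) to 8.35 ± 0.21 (SD, n = 3) the change was -0.72 (limma, SE 0.15, adjusted p = 0.0419), leaving 60.6% of control with an interval of 47.9% to 76.8%. With the replicate block the SE was 0.06 and the adjusted p 0.00223 (limma).

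All 27 probe sets of Thbs1 had a lower mean with the Cugbp1 shRNA, 20 of them without overlap and 26 within every replicate number. Here too the call was made from these same probe sets, so the counts are no separate support. Their changes ran from -1.07 to -0.19, with a median of -0.67. Like that of Pdgfrb, the call was lost without any single array, where the change was -0.82 to -0.59 and the adjusted p 0.0779 to 0.277 (limma). It was also lost after quantile normalization (-0.71, adjusted p = 0.0549) and with the mean of probe sets in place of median polish (-0.68, adjusted p = 0.0662).

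**Figure D3:**
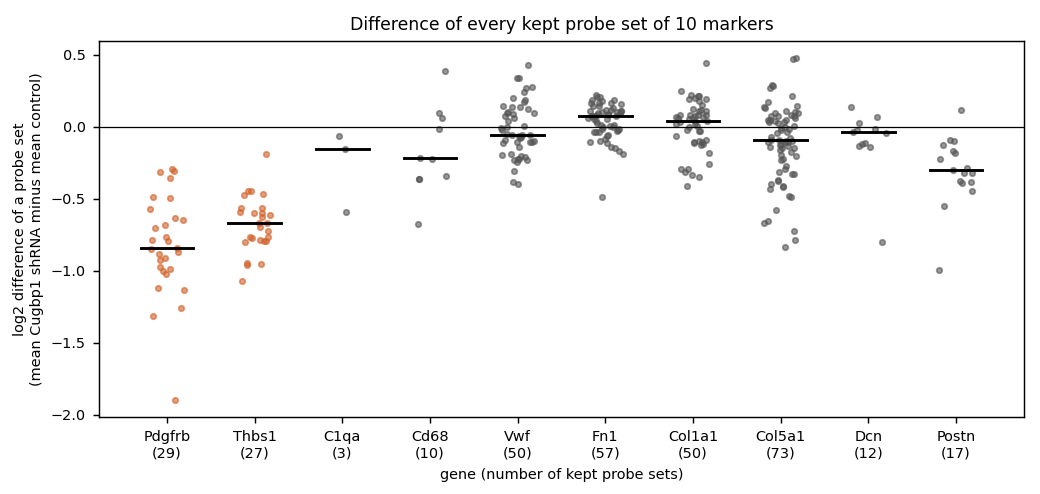
Log2 difference of every kept probe set (points), mean of 3 Cugbp1 shRNA arrays minus mean of 3 control arrays, for 10 markers, with the median as a bar and the number of probe sets in brackets. All 29 points of Pdgfrb and all 27 of Thbs1 lie below 0, while the other genes with more than 3 probe sets have points on both sides. The calls of Pdgfrb and Thbs1 were made from these same probe sets.

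Among other thrombospondins, named by family after their values had been seen, Thbs2 changed by 0.09, Thbs3 by -0.13 and Thbs4 by -0.06, and Cd47 by -0.04. None of these was called. Astrocytes, another source of Thbs1, were still well read in both groups. Their 12 markers averaged 10.05, 10.01 and 10.01 in controls and 10.02, 9.86 and 9.74 with the Cugbp1 shRNA, and none was called without the block. With it 3 of the 12 were called lower (25.0%, against 13.9% of all genes). These were Ntsr2 (-0.87), Mlc1 (-0.53) and Aldh1l1 (-0.21) (adjusted p = 0.00263, 0.0122 and 0.0432, limma). The part of these shifts in the changes of Thbs1 and Pdgfrb was not tested.

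The fibrillar collagens, the main product of fibroblasts, changed by less than their spread. Col1a1, a chain of type I collagen, read 7.26, 7.73 and 8.05 in controls and 7.38, 7.67 and 7.94 with the Cugbp1 shRNA. Col1a2, its partner chain, read 7.37, 7.80 and 8.17 against 7.46, 7.79 and 8.01. In both genes the 3 replicate numbers were further apart than the groups: the changes were -0.01 (SE 0.22) and -0.03 (SE 0.22), and the control SD was 0.40 in each.

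Col3a1, of type III collagen, changed by -0.04, Col5a1, of type V, by -0.06 and Col6a1, of type VI, by 0.04. Decorin (Dcn), a proteoglycan that binds collagen fibrils, read 10.92, 10.55 and 10.62 in controls and 10.70, 10.57 and 10.66 with the shRNA, a change of -0.05 (limma, SE 0.12, adjusted p = 0.898). Only 12 of its 19 probe sets reached the array median, and 10 the upper quartile.

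Fibronectin (Fn1), a matrix glycoprotein bound by integrins, had all 57 probe sets at the array median and 55 at the upper quartile. It read 10.47, 9.95 and 9.49 in controls and 9.96, 10.23 and 9.87 with the Cugbp1 shRNA, so that the control arrays spanned the knockdown arrays. Its change of 0.05 (limma, SE 0.24, adjusted p = 0.961) had a 95% interval of -0.50 to 0.60, and Fn1 was lower in replicate 1 and higher in replicates 2 and 3.

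Periostin (Postn), a matrix protein of injured and growing connective tissue, had the largest control SD of the 41 markers, 0.71. It read 7.64, 6.82 and 6.23 in controls and 7.13, 6.33 and 6.42 with the Cugbp1 shRNA, and replicate 1 was the highest in both groups. A change of -0.27 (limma, SE 0.36, adjusted p = 0.805) with an interval from -1.11 to 0.58 leaves its direction unsettled.

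Of the meningeal genes, Ptgds, the prostaglandin D synthase of meninges and choroid plexus, read 8.13, 7.93 and 7.96 in controls and 8.26, 8.09 and 8.03 with the shRNA, higher by 0.12 (limma, SE 0.10, adjusted p = 0.653). Foxc1, a transcription factor needed to form the meninges, read 8.81, 9.12 and 9.26 against 8.93, 9.20 and 9.44, higher by 0.13 (SE 0.17, adjusted p = 0.797). Both were higher within every replicate number and neither passed the test, with the block (adjusted p = 0.194 and 0.170) or without. Igf2, a growth factor of meninges and vessels, changed by 0.04, and the contractile genes Acta2 and Tagln by -0.07 and -0.05.

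Among 32 further genes of matrix and meninges, 31 had probe sets and 30 were tested, with 1 called lower and none higher (limma, no block). The lower call was 3.33% of the list, near the 2.87% of all genes called lower, and 1.11% of all genes were called higher. Igfbp3, a secreted binding protein of insulin-like growth factors, read 9.44, 9.49 and 9.53 in controls and 8.62, 8.92 and 9.00 with the Cugbp1 shRNA. It fell by 0.64 (SE 0.12, adjusted p = 0.0345), and the groups did not overlap. Without any single array the call was lost (-0.73 to -0.52, adjusted p = 0.0733 to 0.158, limma). Its relative Igfbp2 read 9.52, 9.28 and 9.37 against 9.70, 9.92 and 9.80, higher by 0.42 (SE 0.11, adjusted p = 0.0728 without the block and 0.0242 with it).

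With the block 6 of these 30 genes were called lower and 2 higher, near the 13.9% and 9.35% of all genes. Beside Igfbp3 the lower genes, named after their values had been seen, were the matrix proteins Sparc (-0.52), Bgn (-0.64), Col6a3 (-0.37) and Lama1 (-0.43) and the receptor Igf2r (-0.53). Bgn, the proteoglycan biglycan, read 9.32, 8.68 and 7.93 in controls and 8.64, 8.03 and 7.33 with the shRNA. Its replicates differed by more than the groups did, and its adjusted p was 0.484 without the block and 0.00249 with it (limma). The genes called higher with the block were Igfbp2 and the meningeal transcription factor Zic1 (0.38).

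**Figure D4:**
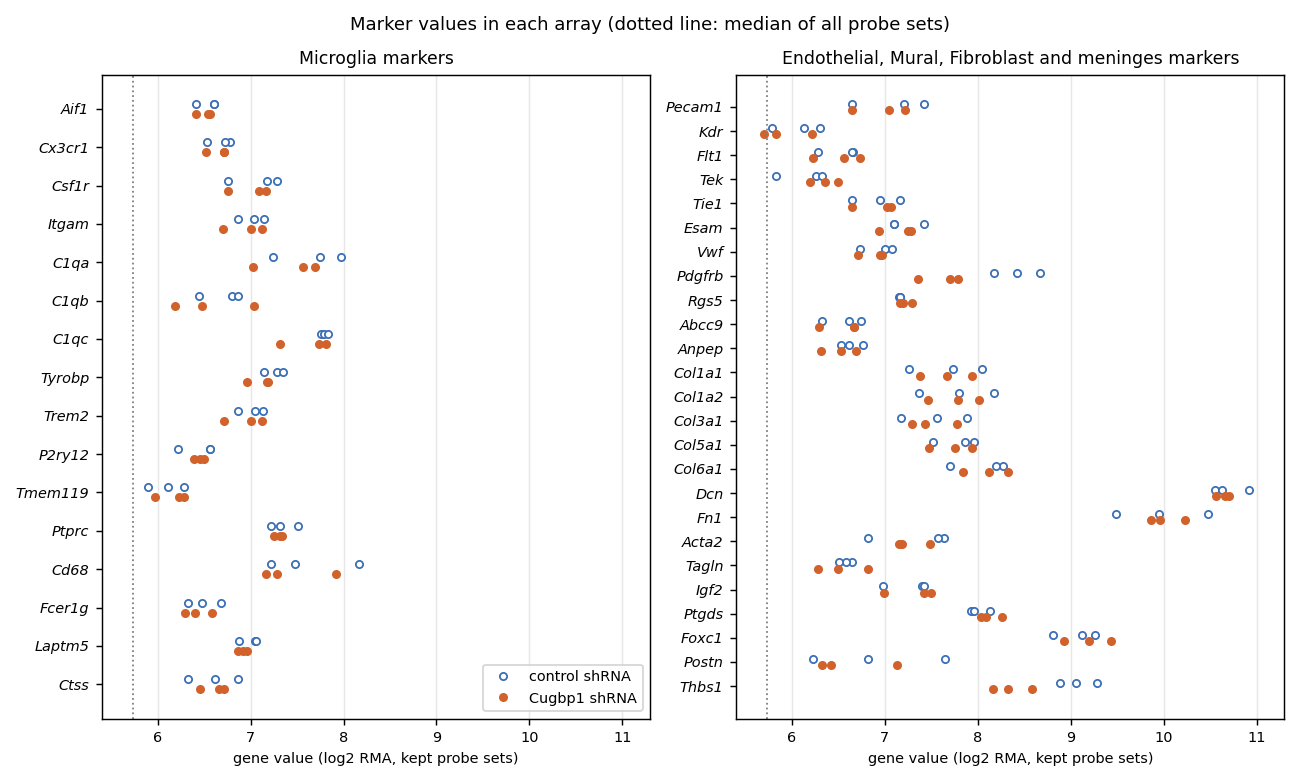
Gene value on the log2 scale (horizontal axis) of every tested marker in each of the 3 control arrays (open points) and 3 Cugbp1 shRNA arrays (filled points), with the array median as a dotted line. Values rest only on probe sets kept because their mean reached that median, so a place right of the line follows largely from the filter. The points of Pdgfrb and Thbs1 separate by group, and those of the other 39 markers overlap; levels of different genes are not comparable, since probes differ in affinity.

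Microglial markers were slightly lower on average, and none of the 16 was called lower or higher without the block (limma). None had an unadjusted p under 0.05, where 3083 of all 16524 genes did. Means were lower in 14 (87.5%, against 53.5% of all genes) and higher in 2, and the median change was -0.068. Averaged over its genes, the list read 6.85, 6.99 and 7.03 in controls and 6.75, 6.90 and 6.99 with the Cugbp1 shRNA, lower within every replicate number. The average over all genes was also lower within every replicate number, 8.62, 8.69 and 8.66 in controls against 8.58, 8.66 and 8.65 with the shRNA. For the microglial list the ranges of the groups overlapped, and the lowest array was replicate 1 of each group. The sign of its median change depended on the filter, as given below.

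Complement C1q, which opens the classical pathway, is made of 3 chains. C1qa read 7.24, 7.74 and 7.97 in control replicates 1, 2 and 3 and 7.03, 7.56 and 7.69 with the Cugbp1 shRNA, changes of -0.22, -0.19 and -0.28 within the numbers. The groups overlapped, and the change of -0.23 (limma, SE 0.23) had an adjusted p of 0.713. With the replicate block its SE was 0.06 and the adjusted p 0.0377 (limma). It was the only 1 of the 16 microglial markers called with the block (6.25%), where 13.9% of all genes were called lower.

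Only 3 of 4 probe sets carry the C1qa value, and although all 3 had lower means, none separated the groups. C1qb read 6.44, 6.79 and 6.87 in controls and 6.18, 6.48 and 7.04 with the shRNA, lower in replicates 1 and 2 and higher in replicate 3. C1qc read 7.76, 7.78 and 7.84 against 7.32, 7.81 and 7.74, lower in replicates 1 and 3. The changes of C1qb and C1qc, -0.14 (SE 0.22) and -0.17 (SE 0.14), did not pass the test with the block (adjusted p = 0.388 and 0.249) or without (0.850 and 0.610).

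Tyrobp, the adaptor through which the receptor Trem2 signals, read 7.14, 7.29 and 7.35 in controls and 6.97, 7.19 and 7.18 with the Cugbp1 shRNA. Its change was -0.15 (limma, SE 0.11, adjusted p = 0.546). Trem2 itself changed by -0.07, and the adaptor Fcer1g by -0.07. Laptm5, a lysosomal protein of leukocytes, read 7.05, 7.05 and 6.88 against 6.87, 6.92 and 6.96, a change of -0.08 (SE 0.09, adjusted p = 0.773).

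Cd68, a lysosomal protein of macrophages, reached the array median with all 10 probe sets, yet its replicates differed widely. It read 8.17, 7.48 and 7.22 in controls and 7.92, 7.17 and 7.28 with the shRNA, highest in replicate 1 of both groups. The change was -0.17 (limma, SE 0.28, adjusted p = 0.858).

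The receptors that define microglia in tissue changed little. Csf1r, on which their survival depends, changed by -0.07, the fractalkine receptor Cx3cr1 by -0.03 and the purine receptor P2ry12 by 0.00. The membrane protein Tmem119 changed by 0.07, the calcium-binding protein Aif1 (Iba1) by -0.04, Itgam by -0.07, Ptprc by -0.05 and Ctss by -0.00. For 13 of the 16 microglial genes (81.25%, against 62.0% of all genes) the 95% interval lay within 0.5 either side of 0. These genes read low: Cx3cr1, Aif1 and Tmem119 had 0 probe sets at the upper quartile, P2ry12 had 1 of 7 and Csf1r 8 of 33. Itgam, Ptprc and Ctss were not measured by the rule above. The part of low signal in the small changes was not tested.

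Of 25 further microglial genes and ligands, 24 had probe sets and 22 were tested, with none called without the block. With it 2 were called lower (9.09%), below the 13.9% of all genes. Il34, the neuronal ligand of Csf1r, read 7.02, 7.38 and 7.51 in controls and 6.55, 6.99 and 7.16 with the Cugbp1 shRNA. Its change of -0.40 (limma, SE 0.19) had an adjusted p of 0.306 without the block and 0.00695 with it. Siglech, a sialic acid receptor of microglia, read 6.24, 6.34 and 6.56 against 5.82, 6.14 and 6.32, lower within every replicate number. Its change was -0.29 (adjusted p = 0.382 without the block and 0.0302 with it). The other Csf1r ligand, Csf1, named after its value had been seen, changed by -0.08.

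Endothelial markers had none of 7 tested genes called, with or without the block (limma). None had an unadjusted p under 0.05, against 3083 of all 16524 genes. Means were lower in 6 and higher in 1, the median change was -0.053, and every one of the 7 moved by less than its control SD. The list averaged 6.43, 6.81 and 6.85 in controls and 6.44, 6.80 and 6.77 with the Cugbp1 shRNA, so replicate 1 was lower than the others by more than the groups differed.

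Pecam1, the adhesion molecule CD31, read 6.64, 7.42 and 7.21 in controls and 6.64, 7.22 and 7.05 with the shRNA, a change of -0.12 (limma, SE 0.23, adjusted p = 0.873). Vwf, the clotting factor carrier of endothelium, read 6.73, 7.00 and 7.08 against 6.71, 6.95 and 6.97, a change of -0.06 (SE 0.13). In both genes replicate 1 was the lowest array of each group, and the groups overlapped. Esam, a junctional adhesion molecule, read 7.10, 7.09 and 7.42 against 6.93, 7.28 and 7.24, a change of -0.05 (SE 0.14).

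The receptor Kdr read 5.78, 6.30 and 6.13 in controls and 5.70, 6.22 and 5.83 with the Cugbp1 shRNA, a change of -0.16 (limma, SE 0.18, adjusted p = 0.753). Tek, the receptor of angiopoietins, was the one endothelial marker with a higher mean, reading 5.83, 6.26 and 6.32 against 6.20, 6.36 and 6.50. Its change of 0.22 (limma, SE 0.15) passed neither without the block (adjusted p = 0.539) nor with it (0.0771), and few of its probe sets reached the array median. Flt1, a second VEGF receptor, changed by -0.02 and Tie1, an orphan receptor of the same family as Tek, by -0.00.

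In the wider endothelial list 21 of 22 genes were tested, with 1 called lower and none higher without the block. The lower call was 4.76% of the list, beside 2.87% of all genes called lower and 1.11% higher. Ocln, the tight junction protein occludin, read 7.85, 8.07 and 7.80 in controls and 7.05, 7.01 and 7.02 with the Cugbp1 shRNA. It fell by 0.88 (limma, SE 0.10, adjusted p = 0.0176), and no array of one group reached the other. The call held without control replicate 1 (adjusted p = 0.0409) and was lost without any other array (-0.90 to -0.76, adjusted p = 0.0610 to 0.139, limma). Vegfa, the ligand of Kdr and Flt1, read 10.52, 10.47 and 10.41 against 10.06, 10.09 and 10.09, a change of -0.39 (SE 0.08) whose adjusted p was 0.0508 without the block and 0.00873 with it.

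With the block 6 of the 21 genes were called lower (28.6%) and none higher, beside 13.9% and 9.35% of all genes. Beside Ocln and Vegfa these were, named after their values had been seen, the ligand Vegfb (-0.29), the VEGF co-receptor Nrp1 (-0.48), the glucose transporter Slc2a1 (-0.52) and the lipid transporter Mfsd2a (-0.49). Vegfa, Vegfb, Nrp1 and Slc2a1 are not exclusive to endothelium. All 6 genes, Ocln and Mfsd2a included, were among the 9 of 22 measured at the upper quartile. Cdh5 reached that level with 2 of 14 probe sets, Emcn with 0 of 19 and Slco1a4 with 0 of 22. Which cells the changes of the 6 genes came from was not tested. The neuron list averaged 11.96, 11.95 and 11.91 in controls and 11.85, 11.87 and 11.83 with the shRNA. None of its 15 genes was called without the block, and with it Dcx (-0.45) was called lower and Gad1 (0.46) higher (adjusted p = 0.00466 and 0.00807, limma). The lower call was 6.67% of the list, beside 13.9% of all genes, and the higher call 1 of 15, beside 9.35%.

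Many of these markers followed the replicate number. In 28 of the 41 tested markers (68.3%) replicate 1 was the lowest array of both groups, against 38.6% of all genes, and in 4 (9.76%) it was the highest of both, against 22.5%. The latter 4 were Cd68, Dcn, Ptgds and Postn. By list, replicate 1 was lowest in both groups in 68.8% of microglial, 85.7% of endothelial and 57.1% of fibroblast markers. The oligodendrocyte lineage list went the other way, averaging 9.73, 9.28 and 9.21 in controls and 9.64, 9.48 and 9.24 with the Cugbp1 shRNA. What set replicate 1 apart was not tested; its title carries no number, and its treatment text differs from that of replicates 2 and 3.

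**Figure D5:**
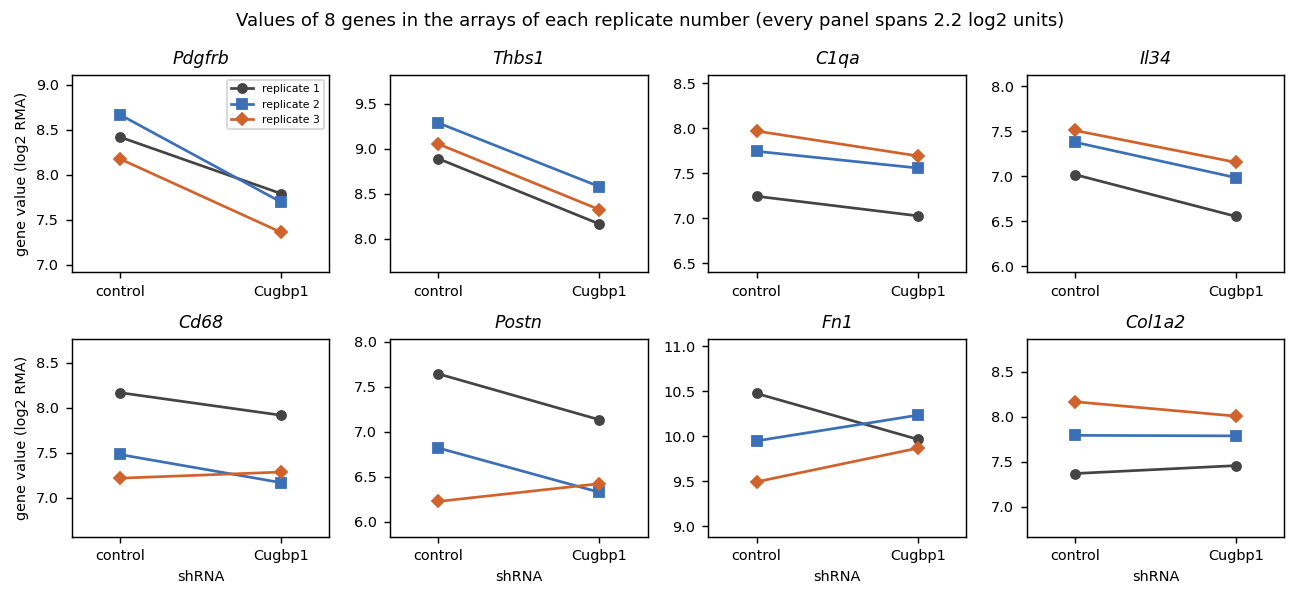
Gene values on the log2 scale (vertical axis, every panel spanning the same range of log2 units) of 7 markers and the ligand Il34 in the control and Cugbp1 shRNA arrays, joined by replicate number. Pdgfrb, Thbs1, C1qa and Il34 are lower in every replicate, while Cd68, Postn and Fn1 have lines of both directions and the 3 lines of Col1a2 lie further apart than its groups.

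Because Celf1 encodes a splicing regulator, the 717 kept probe sets of tested markers were also compared with the rest of their gene. None passed limma's diffSplice at an adjusted p under 0.05, where 0.0822% of all 244604 probe sets did. At an unadjusted p under 0.05 there were 14, and 3.07% of all probe sets had such a p. Closest to the threshold, and chosen here after its values were seen, was Pdgfrb probe set 4603547. It read 7.71, 7.83 and 7.07 in controls and 5.38, 5.82 and 5.71 with the Cugbp1 shRNA, the last below or near the array median. Relative to the gene it was lower by a log2 difference of -1.12 (diffSplice adjusted p = 0.0565), on top of the lower Pdgfrb value itself. With the replicate block 6 marker probe sets passed, where 2.37% of all did, and 4 of them were relatively lower. They belonged to Pdgfrb, Thbs1, Dcn, Col3a1 and, with 2, Col5a1. Where in the gene these probe sets lie was not analysed here.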

How the data were processed

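The deposited table holds log2 RMA values, 1 per exon probe set and array, made by the authors in Affymetrix Expression Console, per the labels' protocols and the submitters' processing notes, which also name mm9. RMA gives all arrays one distribution, so a difference in total signal cannot be seen. The software version is not given in the sources used here. Precision is limited by the number of arrays.

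There were 1195555 probe sets. Array medians were 5.74 to 5.78, and columns differed by at most 0.0653 at the percentiles compared, so values were used as deposited. The platform annotation gave 1 gene to 316997 probe sets, several to 6571 and did not list 871987. Old symbols were updated with the RefSeq table of GRCm38.p6 (4212 of 22264). For Postn, 7 probe sets listed under a former symbol were left out. Probe sets entered where their mean over 6 arrays reached the median of all, 5.73. Genes with at least 3 kept probe sets (16524, with a median of 12) got 1 value per array by median polish. Changes were tested as Cugbp1 shRNA minus control with limma 3.58.1 (lmFit, eBayes, diffSplice) in R 4.3.3, two-sided, with Benjamini-Hochberg adjustment over all genes or probe sets. The R package data.table (1.17.8) read the table, and matplotlib 3.10.9 drew the plots. The code was tested on simulated data.

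The members, lists, tests and naming rule were chosen with earlier results of these data known. The rule gives full values to members called with or without the block, to the 4 of smallest p and the 3 of highest control mean among those measured in each list, and the change of every other member; from the wider lists it names calls without the block and the 2 of smallest p. Replicate numbers come from the titles, replicate 1 by exclusion. Deviations from group means correlated at 0.76, 0.50 and 0.71 between same-numbered arrays, across genes, so the numbers were taken to pair the arrays and the fit with the block is given beside the one without. Other alternatives were quantile normalization, median subtraction, no filter, a filter at the upper quartile, means of probe sets, trend and robust variances, leaving out each array and, chosen after seeing the data, replicates 2 and 3 alone.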

Additional observations from a re-analysis of the deposited data

How the results depend on the processing

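The count of genes called lower, 475, became 2301 with the replicate block, 731 with trend and robust variances and 0 to 186 without any single array. The count called higher, 184, became 1545, 365 and 0 to 105 in the same settings, and 363 with a filter at the upper quartile. Markers called lower, 2, were 1 after quantile normalization, 1 with means of probe sets, 1 with replicates 2 and 3 alone, and 0 to 0 without any single array. Marker probe sets called by diffSplice, 0, were 6 with the replicate block, 1 with no filter and 0 to 1 without any single array. With the upper quartile as the level, 10 markers were measured in place of 35, with 34.1% of probe sets above it in place of 67.7%. Median list changes at the upper quartile filter, which leaves fewer genes, were 0.014 for microglia, 0.027 for endothelium and -0.39 for mural markers, so the sign of the first and second depends on that filter. Without any single array they were -0.14 to 0.047 for endothelium, -0.13 to 0.029 for mural markers and -0.11 to 0.084 for fibroblasts. Of the 39 markers not called, 31 changed sign in at least 1 of 14 alternatives (14 not counting left-out arrays), and none passed the test in an alternative other than the block. Scaling moved the median of all genes by little: it was -0.010 after quantile normalization and -0.014 after median subtraction, against -0.015. Without the block, the markers' median SE of 0.152 limits what 3 arrays per group can show.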
